A study of Mus musculus with 2 samples.

Results

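The 33 genes described here are the enzymes and transporters of glycolysis together with well-known target genes of the hypoxia response. They were chosen by symbol, and all 33 were found among the 33696 genes listed for CT26 tumors, in which single cells were sequenced. CT26 is a mouse colon carcinoma cell line that was grown under the skin of male BALB/c mice aged 6 to 8 weeks at the start. Tumors were either left untreated (UT) or given 1 dose of BUP-Gel, a hydrogel that releases the local anesthetic bupivacaine (BUP) at the tumor site, at 40 mg/kg of bupivacaine (BUP-treated). Each group is 1 library in which cells of tumors from 3 mice were pooled, so the 2 libraries cannot show how mice differ, and no test between the groups was possible. Live CD45+ and CD45- cells were sorted and pooled in a set ratio, given as 4:1 in the labels and as 3:1 in the study's methods, before capture with 10X Genomics 5' chemistry, so shares of immune and tumor cells were set by the sort.

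Glycolysis turns glucose into pyruvate in the cytosol, and cells short of oxygen reduce pyruvate to lactate and export it. In such cells the prolyl hydroxylases that mark hypoxia-inducible factor for decay lose activity. The factor then raises glucose transporters, most glycolytic enzymes, lactate export, a block on pyruvate entry into mitochondria, mitophagy, angiogenic factors and its own prolyl hydroxylases. Activated macrophages, neutrophils and T cells raise many of the same genes by other routes, so a high level of them does not by itself report low oxygen.

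Because the hypoxia-inducible factors bind the letters ACGTG or GCGTG, the 300 bases upstream of the start of each gene's canonical transcript were read from the GRCm39 genome with GENCODE annotation and searched for these letters on both strands. At least 1 such place lay in the window of 22 of the 33 genes, or 66.7%, against 45.1% of 21757 protein-coding genes. ACGTG alone was held by 42.4% of the 33 genes and by 19.7% of all genes, and GCGTG by 54.5% and 34%. At least 3 places were found for 27.3% of the 33 genes and for 8.87% of all genes. A match is a description of the letters and not a bound site. The 33 genes were chosen in part as known targets of the hypoxia response, and the background was not matched for base composition. The shares are therefore no test of the set. For Aldoa, Pgam1, Pkm, Kdm3a, Adm, Car9, Ndrg1 and Ddit4 all 300 bases lie in annotated exons. The places of both motifs can overlap on opposite strands, where CACGTG counts as 2 places. The longest exon-free stretch of the window is shown for 4 genes whose levels are given below, with matches to ACGTG or GCGTG on either strand in capitals: Bnip3 (chr7:138511254-138511412, minus strand), Ankrd37 (chr8:46452912-46453205, minus strand), Ero1a (chr14:45556037-45556159, minus strand) and Pgk1 (chrX:105230406-105230705, plus strand). The stretch of Ero1a holds 3 of the 4 places of its window. All 4 genes shown have matches, while Vegfa, Tpi1, Pfkfb3 and Slc2a3, whose levels are also given below, had none in their windows.
Bnip3: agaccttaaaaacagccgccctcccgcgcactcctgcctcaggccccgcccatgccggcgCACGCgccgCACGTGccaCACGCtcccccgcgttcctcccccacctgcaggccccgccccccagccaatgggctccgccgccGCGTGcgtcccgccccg
Ankrd37: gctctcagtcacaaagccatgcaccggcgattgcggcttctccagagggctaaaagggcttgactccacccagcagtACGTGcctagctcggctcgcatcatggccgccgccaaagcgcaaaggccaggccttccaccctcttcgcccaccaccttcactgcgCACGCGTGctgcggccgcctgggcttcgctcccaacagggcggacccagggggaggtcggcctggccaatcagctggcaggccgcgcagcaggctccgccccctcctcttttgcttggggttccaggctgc
Ero1a: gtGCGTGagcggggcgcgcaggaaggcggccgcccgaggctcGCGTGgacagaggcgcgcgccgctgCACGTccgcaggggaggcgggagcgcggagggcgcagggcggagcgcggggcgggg
Pgk1: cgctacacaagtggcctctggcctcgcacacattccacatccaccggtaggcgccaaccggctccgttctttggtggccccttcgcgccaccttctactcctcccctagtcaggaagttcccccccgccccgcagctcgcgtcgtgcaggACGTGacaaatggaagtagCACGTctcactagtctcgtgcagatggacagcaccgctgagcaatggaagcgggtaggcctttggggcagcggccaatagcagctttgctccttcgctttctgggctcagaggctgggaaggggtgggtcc

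The UT library held 83228442 UMIs (unique molecular identifiers, 1 per captured molecule) in 7556 barcodes and the BUP-treated library 89918925 in 7221. After the filter on cells, 7163 and 6776 cells remained, with medians of 8430 and 10420 UMIs, and 68 of their barcodes occurred in both libraries. Clusters built without the 33 genes gave 12 described cell classes, which held 12049 of the 13939 cells, and each was named from markers. The Ogn tumor-like cells held Ogn at 481 CPM and Aspn at 262, the Krt20 tumor-like cells Esm1 at 319 and Krt20 at 169, and the cycling tumor-like cells Top2a at 369.9, while the epithelial keratins Krt8 and Krt18 reached at most 17.5 CPM in these 3 classes. Of the fibroblast markers, Dcn stood at 1028 CPM in the Ogn, 325 in the Krt20 and 202 in the cycling tumor-like cells. Col1a1 stood at 55.3, 37.1 and 22 CPM in them. The study named some non-immune clusters from fibroblast transcripts and another as proliferating tumor cells. How those clusters map to the classes here was not tested. C1qa stood at 4197 CPM in the C1q macrophage-like cells, Cxcl3 at 2447 in the Cxcl3 macrophage-like cells, Ace at 164 in the monocyte-like cells, S100a9 at 51979.5 in the neutrophil-like cells, Cd8a at 923 in the CD8 T-like cells and Ncr1 at 815 in the NK-like cells. The cycling CD8 T-like cells held Cd8a at 539 CPM. They also held Ncr1 at 147 CPM and Trdc at 39.3, against 18.2 and 1.29 in the CD8 T-like cells. Whether other cycling lymphocytes are part of that class was not tested. The smallest immune class of the 12 joined Foxp3 (139 CPM) with Il17a (249 CPM), and is called regulatory and gamma-delta T-like. Cd4 (98.9 CPM) stood below Cd8b1 (207 CPM) in it, and the gamma-delta receptor gene Trdc stood at 77.6 CPM, below its 177 CPM in the NK-like cells. Doublets were not removed: the share of cells among the highest doublet scores was 18.6% in UT and 34.5% in BUP-treated cycling C1q macrophage-like cells, 15% and 18% in cycling tumor-like cells, and at most 11.7% in the other 10 classes.

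Levels, printed as CPM, are the UMIs of a gene scaled to 1000000 UMIs over all cells of a class in a library. Ratios are log2 of the BUP-treated over the UT level, each with an exact 95% interval that covers counting error only and not the spread between mice, pooled tumors or sorts. Shares of cells carry exact binomial 95% intervals of the same kind. A gene is called higher or lower where its ratio passes 1.5-fold and it has at least 50 UMIs over both libraries in the class. With 1 library per group this is a rule of size and not a test. Calls, ranges and orders are over the 12 classes unless another class is named.

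Most of the glycolysis and hypoxia response genes had a ratio below 0, that is a lower level in the BUP-treated library, in all 3 tumor-like and both CD8 T-like classes, and most had one above 0 in the monocyte-like cells. In the Ogn tumor-like cells (513 UT and 1554 BUP-treated cells), 29 of 32 genes with enough UMIs had a ratio below 0, while 64.2% of all genes did, with a median of -0.25 against -0.07 over all genes. In the Krt20 tumor-like cells (442 and 676) it was 28 of 29 genes (all genes 62.6%), with a median of -0.25 against -0.06. In the cycling tumor-like cells (173 and 205) all 29 genes with enough UMIs had ratios below 0 (all genes 61.4%), with a median of -0.37 against -0.06. The CD8 T-like cells (318 and 487) had 24 of 28 genes below 0 (all genes 62.6%) and a median of -0.36 against -0.09. The cycling CD8 T-like cells (173 and 277) had 22 of 28 below 0 (all genes 56.3%) and a median of -0.31 against -0.04. Medians also lay below those of all genes in the regulatory and gamma-delta T-like (-0.24 against -0.08), C1q macrophage-like (-0.17 against -0.03), NK-like (-0.16 against -0.09) and cycling C1q macrophage-like cells (-0.12 against -0.04). Below 0 in these were 15 of 19 (all genes 58.1%), 23 of 33 (54.7%), 22 of 29 (62.9%) and 20 of 31 genes (55.2%). The Cxcl3 macrophage-like cells had 22 of 32 genes below 0 (all genes 61.1%) and a median of -0.04 against -0.06. The neutrophil-like cells had 16 of 29 below 0 (all genes 60.9%) and a median of -0.05 against -0.10. The monocyte-like cells (489 and 276) stood apart in direction, with 4 of 28 genes below 0 (all genes 53.4%), 24 above it and a median of 0.21 against -0.03. That direction depended on how the class was drawn: when the genes were kept among those used for clustering, the class took in 1097 cells and its median was -0.04.

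Most of the shift was small, and fewer genes passed 1.5-fold. In the Ogn tumor-like cells 6 of 32 genes were called lower, while 4.03% of all genes tested were, and 0 were called higher, against 1.61% of all genes. In the Krt20 tumor-like cells 2 of 29 were lower (all genes 3.2%) and 0 higher (all genes 1.29%). The cycling tumor-like cells had 7 of 29 lower (all genes 3.93%) and 0 higher (all genes 1.63%). A smaller fold showed the breadth: lower by at least 0.32 on the log2 scale were 12 genes in the Ogn (all genes 12.6%), 13 in the Krt20 (all genes 10.6%) and 18 in the cycling tumor-like cells (all genes 12.6%). In the CD8 T-like cells 3 of 28 genes were lower past 1.5-fold (all genes 7.46%), 0 were higher (all genes 2.1%) and 16 were lower by at least 0.32 (all genes 21.9%). The cycling CD8 T-like cells had 4 of 28 lower (all genes 5.02%), 0 higher (all genes 3.48%) and 12 lower by at least 0.32 (all genes 16.1%).

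The regulatory and gamma-delta T-like cells (115 and 87), the smallest class, had enough UMIs for 19 genes, of which 3 were lower (all genes 11.5%) and 0 higher (all genes 5.05%). In this class hemoglobin RNA stood at 3314 CPM in UT and 0 in BUP-treated cells, and its part in the ratios was not tested. The NK-like cells (491 and 345) had 5 of 29 lower (all genes 6.38%) and 1 higher (all genes 1.26%). The C1q macrophage-like cells (1096 and 461) had 1 of 33 lower (all genes 3.1%) and 2 higher (all genes 4.13%), and their cycling counterpart (318 and 139) 0 of 31 lower (all genes 6.37%) and 2 higher (all genes 5.72%). The Cxcl3 macrophage-like cells (1481 and 882) had 0 of 32 lower (all genes 3.47%) and 0 higher (all genes 2%), with a median ratio of -0.04. The monocyte-like cells had 0 of 28 lower (all genes 5.83%) and 4 higher (all genes 4.56%). The neutrophil-like cells (623 and 428) had 2 of 29 lower (all genes 13.8%) and 0 higher (all genes 2.32%). Read against the shares over all genes, the counts in the C1q, cycling C1q and Cxcl3 macrophage-like, the neutrophil-like, the CD8 T-like and the regulatory and gamma-delta T-like cells lie near the background or below it. Of the smaller classes outside the 12, in the fibroblast-like cells 3 of 25 genes were higher (all genes 15.3%) and 1 lower (all genes 17.2%), in the migratory dendritic-like cells 4 of 22 genes were higher (all genes 7.9%) and 0 lower (all genes 8.05%), and in a cluster led by Ctsk, Acp5 and Mmp9 2 of 24 genes were higher (all genes 12.2%) and 3 lower (all genes 14.2%).

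**Figure D1:**
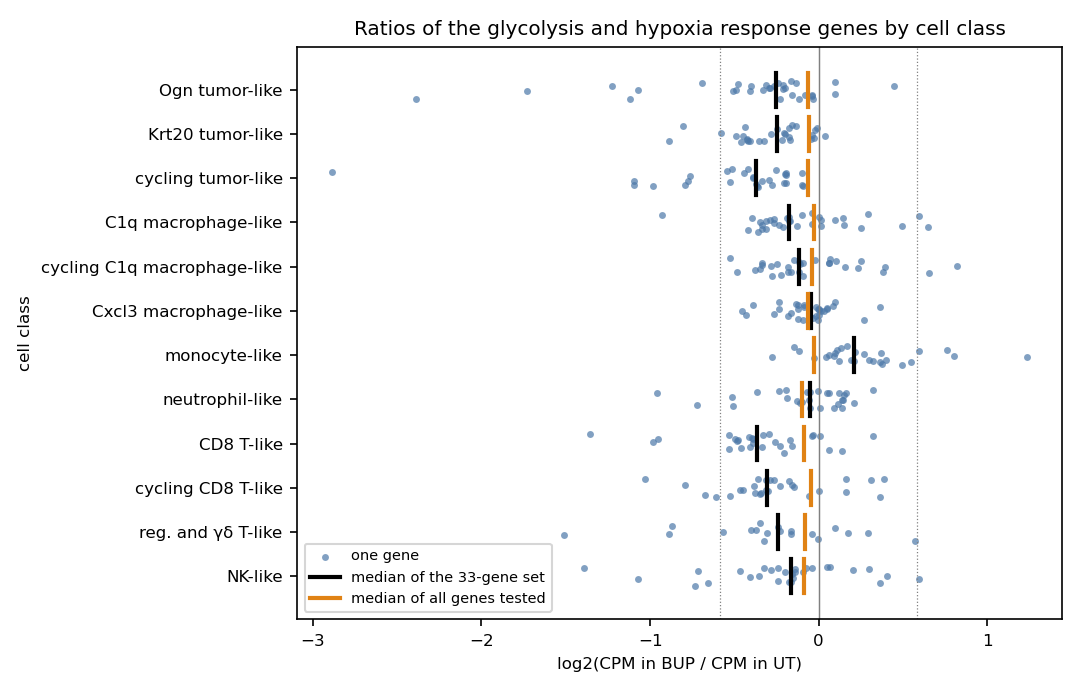
Log2 ratio of BUP-treated over UT CPM (horizontal axis) for each gene with at least 50 UMIs (blue points), in the 12 cell classes (vertical axis), with the median of the 33-gene set (black bar) and of all genes tested (orange bar); dotted lines mark 1.5-fold. The black bar lies left of the orange one by the widest margin in the cycling tumor-like (-0.37 against -0.06), CD8 T-like and cycling CD8 T-like cells. It lies right of it in the monocyte-like cells (0.21 against -0.03). By smaller margins it does so in the neutrophil-like (-0.05 against -0.10) and Cxcl3 macrophage-like cells (-0.04 against -0.06).

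By role, the lower glycolytic enzymes shared their direction. All 6 of them (Gapdh, Pgk1, Pgam1, Eno1, Pkm, Ldha) had ratios below 0 in each of 9 classes: the 3 tumor-like, the 3 macrophage-like, both CD8 T-like and the NK-like cells. Of all genes, 54.7% to 64.2% were below 0 in these classes. The median of the 6 was -0.39 in the cycling tumor-like (all genes -0.06), -0.30 in the Krt20 tumor-like (-0.06), -0.24 in the Ogn tumor-like (-0.07) and -0.37 in the CD8 T-like cells (-0.09). It lay nearer to that of all genes in the Cxcl3 macrophage-like (-0.09 against -0.06) and NK-like cells (-0.16 against -0.09). In the monocyte-like cells none of the 6 was below 0, and their median was 0.10 (all genes -0.03). None of these 6 enzymes passed 1.5-fold in any of the 12 classes. The transport median was further from 0 than that of the lower enzymes in the 3 tumor-like and both CD8 T-like classes, at -0.69 in the Ogn, -0.44 in the Krt20 and -0.64 in the cycling tumor-like cells and -0.49 and -0.68 in the CD8 T-like and cycling CD8 T-like cells, and it was -0.72 in the NK-like and 0.54 in the monocyte-like cells. Slc2a3 had under 50 UMIs in the Krt20 tumor-like, cycling tumor-like and monocyte-like cells, so the transport medians there rest on 2 genes. The median of Car9, Ndrg1 and Ddit4 was -0.76 in the cycling tumor-like cells (3 genes) and -0.08 in the CD8 T-like cells (2 genes, without Car9). That of the oxygen-sensing genes was -0.65 in the Ogn (4 genes) and -0.17 in the Krt20 tumor-like cells (3 genes, without Egln3). These medians cover different genes and do not compare the classes like for like.

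**Figure D2:**
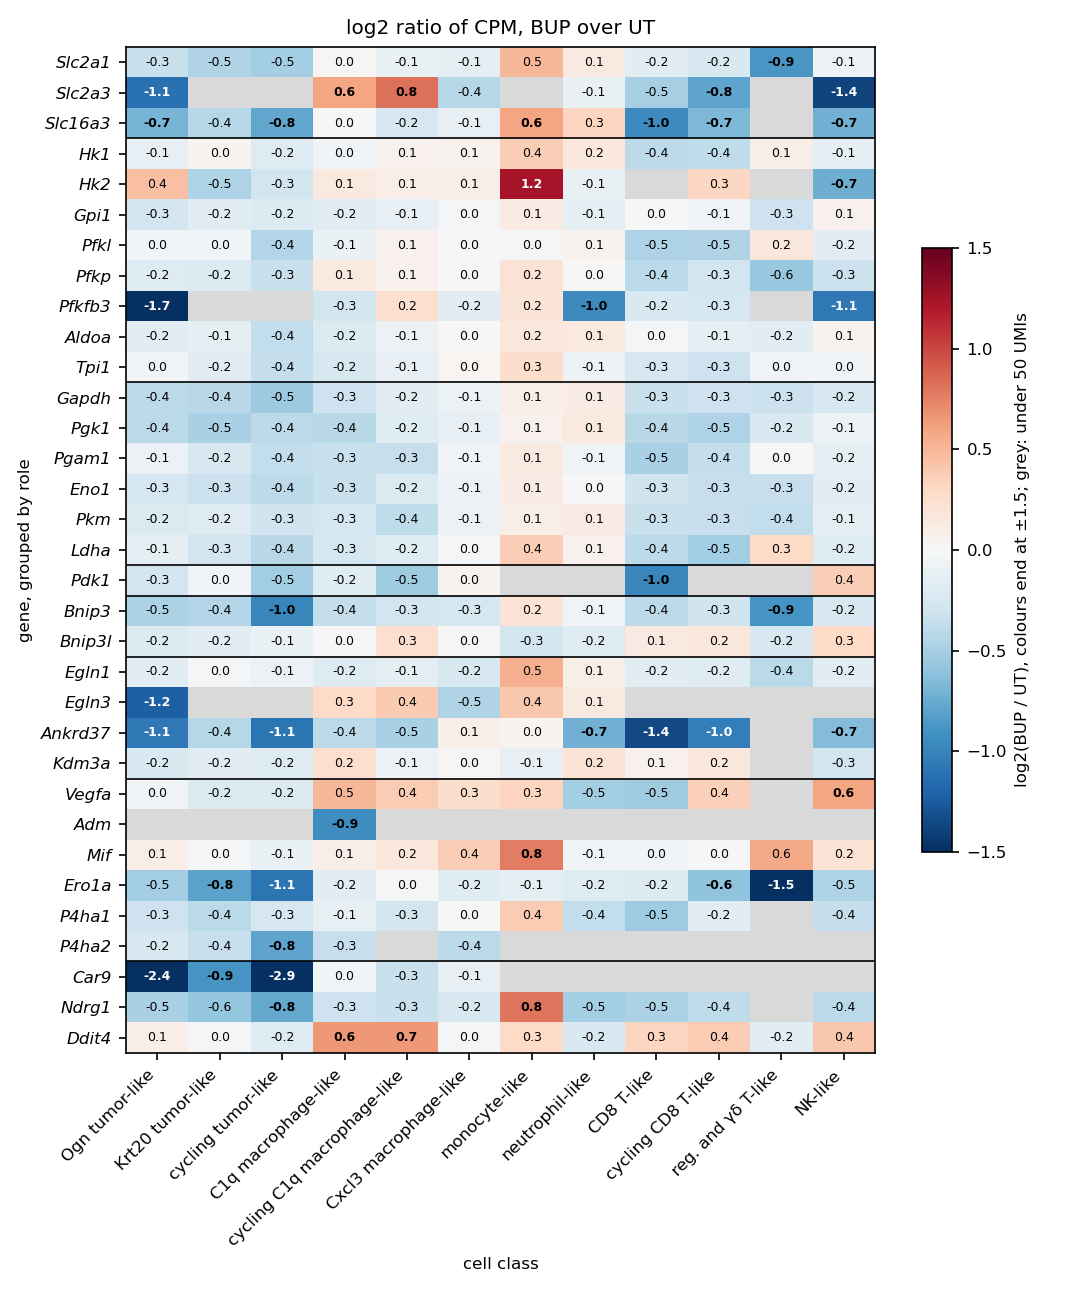
Log2 ratio of BUP-treated over UT CPM for the 33 genes (vertical axis, separated by role) in the 12 cell classes (horizontal axis); blue is lower and red higher in the BUP-treated library, bold numbers pass 1.5-fold and gray cells had under 50 UMIs. The 3 tumor-like columns are blue for nearly all genes, and the monocyte-like column is red for 24 of its 28 genes.

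In both libraries the highest level among the 12 classes was in the Cxcl3 macrophage-like cells for 14 of the 33 genes, in the neutrophil-like cells for 8 and in the Krt20 tumor-like cells for 1 (P4ha2), while the highest class of the other 10 genes was not the same in both libraries. The 8 genes highest in neutrophil-like cells were Slc2a1, Slc2a3, Slc16a3, Pfkfb3, Bnip3l, Egln3, Ero1a and P4ha1. For Bnip3l this was close to a tie. It stood at 217.9 CPM against 217.7 in the regulatory and gamma-delta T-like cells of UT. In the BUP-treated library it stood at 191.1 CPM against 187.5 in the CD8 T-like cells. The BUP-treated Pfkfb3 level of 87.9 CPM was also close to the 79 CPM of the monocyte-like cells. The 14 genes highest in Cxcl3 macrophage-like cells included the enzymes Gpi1, Aldoa, Tpi1, Gapdh, Pgk1, Pgam1 and Pkm, along with Vegfa, Bnip3 and Ndrg1. The values that follow are given as the UT level and then the BUP-treated level.

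Glucose and lactate transporters came first in order of the pathway. Slc2a1, the widely expressed glucose importer GLUT1, stood at 80.6 and 64.1 CPM in the Ogn tumor-like, 113 and 83 in the Krt20 tumor-like and 86.1 and 60.4 in the cycling tumor-like cells. For myeloid cells, Slc2a1 levels were 185 and 186 CPM in the C1q macrophage-like, 125 and 116 in the cycling C1q macrophage-like, 411 and 374 in the Cxcl3 macrophage-like, 163 and 229 in the monocyte-like and 539 and 592 in the neutrophil-like cells. In lymphoid cells, Slc2a1 measured 91.4 and 82 CPM in the CD8 T-like, 87.6 and 74.6 in the cycling CD8 T-like, 135 and 73.6 in the regulatory and gamma-delta T-like and 92.3 and 87.5 in the NK-like cells. It was thus highest in neutrophil-like and Cxcl3 macrophage-like cells in both libraries, and its only called ratio was -0.87 (-1.59 to -0.18) in the regulatory and gamma-delta T-like cells, which was -0.52 after each cell was thinned to 2000 UMIs. The tumor-like ratios of Slc2a1 were -0.33, -0.45 and -0.51, all below 0 with intervals that did not reach 0 and short of 1.5-fold.

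Slc2a3 encodes GLUT3, a glucose importer of high affinity found in neurons and leukocytes. Slc2a3 was at 3.91 and 1.81 CPM in the Ogn tumor-like, 0.971 and 0.838 in the Krt20 tumor-like and 1.44 and 1.13 in the cycling tumor-like cells. For myeloid cells, Slc2a3 levels were 11.3 and 17.1 CPM in the C1q macrophage-like, 17 and 30.02 in the cycling C1q macrophage-like, 5.65 and 4.19 in the Cxcl3 macrophage-like, 4.49 and 5.56 in the monocyte-like and 314 and 293 in the neutrophil-like cells. In lymphoid cells, Slc2a3 measured 118 and 84 CPM in the CD8 T-like, 81.9 and 47.4 in the cycling CD8 T-like, 47.1 and 28.3 in the regulatory and gamma-delta T-like and 101 and 38.5 in the NK-like cells. The neutrophil-like cells held it 55.6- and 69.95-fold higher than the Cxcl3 macrophage-like cells, and a UMI of it was found in 28.1% (24.6 to 31.8) of UT and 34.8% (30.3 to 39.5) of BUP-treated neutrophil-like cells, whose median cell held 1887 and 2131 UMIs. In the Krt20 tumor-like cells, with median depths of 28272 and 26686 UMIs, that share was 2.71% (1.41 to 4.69) and 1.63% (0.815 to 2.89). Thinned to 2000 UMIs a cell, the shares were 33% and 34.8% against 0.226% and 0.297%, with 341 and 198 shallower neutrophil-like cells left out.

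The BUP-treated level of Slc2a3 was lower in NK-like cells, at a ratio of -1.39 (-1.74 to -1.06), in cycling CD8 T-like cells at -0.79 (-1.12 to -0.46) and in Ogn tumor-like cells at -1.12 (-1.83 to -0.38). In NK-like cells, 5 cells held 45.9% of the UT UMIs of Slc2a3, and without the 5 highest cells of each library the ratio was -0.83. Without the cells of highest doublet score the ratio in Ogn tumor-like cells was -2.60. Slc2a3 was higher in C1q macrophage-like cells at 0.60 (0.23 to 0.96) and in their cycling counterpart at 0.82 (0.39 to 1.249). In C1q macrophage-like cells the neutrophil genes S100a8 and S100a9 together stood at 1322 and 4163 CPM, and without the cells that gave over 0.1% of their UMIs to them the Slc2a3 ratio there was 0.16. In the cycling C1q macrophage-like cells the same step gave 0.54.

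Slc16a3 encodes MCT4, the main exporter of lactate. Slc16a3 was found at 29.3 and 18.1 CPM in the Ogn tumor-like, 38.2 and 28.4 in the Krt20 tumor-like and 38.4 and 22.4 in the cycling tumor-like cells. For myeloid cells, Slc16a3 levels were 234 and 236 CPM in the C1q macrophage-like, 156 and 131 in the cycling C1q macrophage-like, 389 and 358 in the Cxcl3 macrophage-like, 159.7 and 241 in the monocyte-like and 1098 and 1375 in the neutrophil-like cells. In lymphoid cells, Slc16a3 measured 52.8 and 27.2 CPM in the CD8 T-like, 57 and 35.7 in the cycling CD8 T-like, 71.8 and 19.8 in the regulatory and gamma-delta T-like and 47.5 and 28.9 in the NK-like cells. It was the gene with the most called ratios beside Ankrd37, with 6 of 12 classes. It was lower in Ogn tumor-like cells at -0.69 (-0.93 to -0.45), in cycling tumor-like cells at -0.78 (-1.07 to -0.49) and in CD8 T-like cells at -0.96 (-1.37 to -0.54). Cycling CD8 T-like cells gave -0.68 (-1.06 to -0.29) and NK-like cells -0.72 (-1.14 to -0.30). Monocyte-like cells held more of it, at 0.60 (0.33 to 0.87). These ratios were sensitive to settings: thinned to 2000 UMIs a cell they were -0.32, -0.53, -0.48, -0.45 and -0.11 in the 5 classes with lower levels, and the monocyte-like ratio was 0.07 with the genes kept for clustering. Neutrophil RNA stood at 365 CPM in UT and 170.3 in BUP-treated Ogn tumor-like cells, and without the cells over 0.1% of it the Slc16a3 ratio was -0.42.

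Among the upper enzymes, Hk2, the inducible hexokinase that traps glucose as glucose-6-phosphate, was at 19.6 and 26.7 CPM in the Ogn tumor-like, 29.1 and 21.2 in the Krt20 tumor-like and 17.4 and 14.4 in the cycling tumor-like cells. For myeloid cells, Hk2 levels were 60.2 and 66.4 CPM in the C1q macrophage-like, 37.3 and 40.03 in the cycling C1q macrophage-like, 76.3 and 80.9 in the Cxcl3 macrophage-like, 59 and 139 in the monocyte-like and 78.3 and 72.7 in the neutrophil-like cells. In lymphoid cells, Hk2 measured 8.66 and 7.37 CPM in the CD8 T-like, 11.5 and 14.3 in the cycling CD8 T-like, 29.2 and 28.3 in the regulatory and gamma-delta T-like and 13.2 and 7.95 in the NK-like cells. The highest ratio called for any of the 33 genes in the 12 classes was that of Hk2 in the monocyte-like cells, at 1.24 (0.84 to 1.64). There the share of cells with a UMI of Hk2 was 14.5% (11.5 to 18) in UT and 28.6% (23.4 to 34.3) in BUP-treated cells, whose median cell held 1965 and 2033 UMIs, against 5.97% (3.64 to 9.17) and 4.31% (2.69 to 6.52) in CD8 T-like cells at 6352 and 5754. Thinned, the monocyte-like shares were 9.54% and 20.9% with 248 and 137 shallower cells left out, and the CD8 T-like ones 2.32% and 1.75%. The ratio was 0.64 with the genes kept for clustering. In NK-like cells the Hk2 ratio was -0.73 (-1.59 to 0.07), past 1.5-fold with an interval that reached 0.

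Pfkfb3 makes fructose-2,6-bisphosphate, the strongest activator of phosphofructokinase. Pfkfb3 was rare in tumor-like cells, at 4.99 and 1.5 CPM in the Ogn tumor-like, 2.09 and 1.05 in the Krt20 tumor-like and 2.45 and 2.68 in the cycling tumor-like cells. For myeloid cells, Pfkfb3 levels were 70.9 and 58 CPM in the C1q macrophage-like, 46.9 and 55.2 in the cycling C1q macrophage-like, 71.4 and 63.8 in the Cxcl3 macrophage-like, 69.3 and 79 in the monocyte-like and 171 and 87.9 in the neutrophil-like cells. In lymphoid cells, Pfkfb3 measured 37.2 and 31.7 CPM in the CD8 T-like, 35.9 and 29.8 in the cycling CD8 T-like, 42.6 and 34 in the regulatory and gamma-delta T-like and 27.3 and 13 in the NK-like cells. Neutrophil-like cells held the highest level in both libraries, and it was lower there in the BUP-treated library, with a ratio of -0.96 (-1.31 to -0.61). It was lower too in NK-like cells at -1.07 (-1.71 to -0.48), which thinning changed to -0.43, and in Ogn tumor-like cells at -1.73 (-2.44 to -1.02), where it rested on 37 and 35 UMIs.

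Gpi1, the isomerase of the second step, measured 580.5 and 474 CPM in the Ogn tumor-like, 550.4 and 493 in the Krt20 tumor-like and 483 and 419.6 in the cycling tumor-like cells. For myeloid cells, Gpi1 levels were 521 and 462 CPM in the C1q macrophage-like, 447 and 412 in the cycling C1q macrophage-like, 642 and 627 in the Cxcl3 macrophage-like, 414 and 451 in the monocyte-like and 286 and 261 in the neutrophil-like cells. In lymphoid cells, Gpi1 measured 504 and 507 CPM in the CD8 T-like, 434 and 418 in the cycling CD8 T-like, 444 and 359.7 in the regulatory and gamma-delta T-like and 407 and 426 in the NK-like cells. Its ratios ran from -0.30 to 0.12 and none was called. Tpi1, which interconverts the 2 triose phosphates, was at 587 and 572 CPM in the Ogn tumor-like, 937 and 831 in the Krt20 tumor-like and 888 and 691 in the cycling tumor-like cells. For myeloid cells, Tpi1 levels were 842 and 714 CPM in the C1q macrophage-like, 708 and 652 in the cycling C1q macrophage-like, 1069.9 and 1094 in the Cxcl3 macrophage-like, 464 and 559 in the monocyte-like and 423 and 403 in the neutrophil-like cells. In lymphoid cells, Tpi1 measured 636 and 533 CPM in the CD8 T-like, 628 and 506 in the cycling CD8 T-like, 471 and 459 in the regulatory and gamma-delta T-like and 518 and 504 in the NK-like cells. Both enzymes were lowest in neutrophil-like cells and highest in Cxcl3 macrophage-like cells in both libraries, and Tpi1 ratios lay between -0.36 in the cycling tumor-like and 0.27 in the monocyte-like cells. The other upper enzymes were not called in any of the 12 classes. Hk1 ranged from 33.7 to 86.8 CPM over classes and libraries, with ratios from -0.39 in CD8 T-like to 0.37 in monocyte-like cells. Pfkl and Pfkp, the liver and platelet isoforms of phosphofructokinase, had ratios from -0.46 to 0.17 and from -0.56 to 0.21. Pfkp was low in tumor-like cells, where no level passed 23.9 CPM, while its levels in the other 9 classes were 121 CPM or more. Aldoa, the aldolase that splits fructose-1,6-bisphosphate, had ratios from -0.37 in the cycling tumor-like to 0.17 in the monocyte-like cells.

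Of the lower enzymes, Gapdh, which yields the first reducing equivalents of the pathway, was at 729 and 550.4 CPM in the Ogn tumor-like, 939.7 and 703 in the Krt20 tumor-like and 993 and 682 in the cycling tumor-like cells. For myeloid cells, Gapdh levels were 1229.8 and 992 CPM in the C1q macrophage-like, 1169 and 1044 in the cycling C1q macrophage-like, 1513 and 1426 in the Cxcl3 macrophage-like, 742 and 795 in the monocyte-like and 636 and 687 in the neutrophil-like cells. In lymphoid cells, Gapdh measured 1175 and 931 CPM in the CD8 T-like, 1067 and 859 in the cycling CD8 T-like, 826 and 659.9 in the regulatory and gamma-delta T-like and 753 and 638 in the NK-like cells. Its lowest ratio was -0.54 (-0.60 to -0.49) in the cycling tumor-like cells, with -0.42 (-0.45 to -0.38) in the Krt20 and -0.41 (-0.45 to -0.36) in the Ogn tumor-like cells, while the neutrophil-like value was 0.11 (-0.03 to 0.26). Pgk1, the first enzyme of the pathway to form ATP, stood at 503 and 381 CPM in the Ogn tumor-like, 796 and 566 in the Krt20 tumor-like and 724 and 552 in the cycling tumor-like cells. For myeloid cells, Pgk1 levels were 646 and 483 CPM in the C1q macrophage-like, 519.8 and 458 in the cycling C1q macrophage-like, 907 and 834 in the Cxcl3 macrophage-like, 357 and 373 in the monocyte-like and 279 and 309.6 in the neutrophil-like cells. In lymphoid cells, Pgk1 measured 580.1 and 435 CPM in the CD8 T-like, 546 and 395 in the cycling CD8 T-like, 352 and 300.2 in the regulatory and gamma-delta T-like and 439 and 412 in the NK-like cells. All 3 tumor-like, all 3 macrophage-like and all 4 lymphoid ratios of Pgk1 were below 0, the lowest at -0.49 (-0.53 to -0.45) in the Krt20 tumor-like cells, and in the Cxcl3 macrophage-like cells, the class with its highest level, the ratio was -0.12 (-0.16 to -0.08).

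Eno1, the enolase expressed in most tissues, was found at 573 and 477 CPM in the Ogn tumor-like, 1016 and 810.0 in the Krt20 tumor-like and 899 and 688 in the cycling tumor-like cells. For myeloid cells, Eno1 levels were 701 and 556 CPM in the C1q macrophage-like, 573 and 492 in the cycling C1q macrophage-like, 988 and 931 in the Cxcl3 macrophage-like, 444 and 479 in the monocyte-like and 362 and 362 in the neutrophil-like cells. In lymphoid cells, Eno1 measured 575 and 468 CPM in the CD8 T-like, 494 and 389 in the cycling CD8 T-like, 465 and 365 in the regulatory and gamma-delta T-like and 627 and 560.2 in the NK-like cells. Its lowest ratio was -0.39 (-0.44 to -0.33) in the cycling tumor-like cells, and the highest 0.11 (-0.07 to 0.28) in the monocyte-like cells. The remaining lower enzymes had no called ratio: Pgam1 ratios ran from -0.49 to 0.13, Pkm from -0.38 to 0.12 and Ldha from -0.52 to 0.37. Ldha, which reduces pyruvate to lactate, was at 1276 and 887 CPM in the cycling CD8 T-like cells, with a ratio of -0.52 (-0.60 to -0.45), and at 618 and 799 CPM in the monocyte-like cells, with 0.37 (0.23 to 0.51), both short of 1.5-fold.

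Pdk1, the kinase that shuts pyruvate dehydrogenase and so keeps pyruvate out of mitochondria, was low throughout, at 22.1 and 18.1 CPM in the Ogn tumor-like, 17.5 and 17 in the Krt20 tumor-like and 13.8 and 9.6 in the cycling tumor-like cells. For myeloid cells, Pdk1 levels were 21.3 and 18.8 CPM in the C1q macrophage-like, 15 and 10.4 in the cycling C1q macrophage-like, 22.7 and 23.4 in the Cxcl3 macrophage-like, 13.5 and 18.9 in the monocyte-like and 11.2 and 10.8 in the neutrophil-like cells. In lymphoid cells, Pdk1 measured 16.5 and 8.33 CPM in the CD8 T-like, 10.5 and 6.49 in the cycling CD8 T-like, 13.5 and 8.5 in the regulatory and gamma-delta T-like and 10.1 and 13 in the NK-like cells. It was called in CD8 T-like cells alone, at -0.98 (-1.76 to -0.22), from 38 and 26 UMIs. In the cycling CD8 T-like cells Pdk1 had under 50 UMIs and was not counted. Bnip3, a receptor that marks mitochondria for mitophagy and whose upstream window, shown in part above, holds 5 places of the searched letters, was at 140.4 and 101 CPM in the Ogn tumor-like, 135 and 99.6 in the Krt20 tumor-like and 106 and 53.5 in the cycling tumor-like cells. For myeloid cells, Bnip3 levels were 222 and 173 CPM in the C1q macrophage-like, 133 and 109 in the cycling C1q macrophage-like, 387 and 322 in the Cxcl3 macrophage-like, 108 and 125 in the monocyte-like and 236 and 227 in the neutrophil-like cells. In lymphoid cells, Bnip3 measured 43.3 and 33 CPM in the CD8 T-like, 36.4 and 29.5 in the cycling CD8 T-like, 94.2 and 51 in the regulatory and gamma-delta T-like and 40.6 and 34.3 in the NK-like cells. Bnip3 was lower in cycling tumor-like cells at -0.98 (-1.17 to -0.80) and in regulatory and gamma-delta T-like cells at -0.89 (-1.77 to -0.06), and the Ogn and Krt20 tumor-like ratios of -0.48 (-0.58 to -0.37) and -0.44 (-0.53 to -0.35) fell short of 1.5-fold. Its relative Bnip3l had no called ratio, with values from -0.28 to 0.30.

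Of the oxygen sensors, Egln1 (PHD2), the main prolyl hydroxylase for hypoxia-inducible factor, measured 84.4 and 75.5 CPM in the Ogn tumor-like, 92.4 and 90.6 in the Krt20 tumor-like and 88.7 and 83.3 in the cycling tumor-like cells. For myeloid cells, Egln1 levels were 99.9 and 87.6 CPM in the C1q macrophage-like, 91 and 82.3 in the cycling C1q macrophage-like, 159.6 and 135 in the Cxcl3 macrophage-like, 89.8 and 131 in the monocyte-like and 38.8 and 41.3 in the neutrophil-like cells. In lymphoid cells, Egln1 measured 104 and 92.9 CPM in the CD8 T-like, 95.3 and 84.4 in the cycling CD8 T-like, 112 and 85 in the regulatory and gamma-delta T-like and 69.9 and 62 in the NK-like cells. No Egln1 ratio was called. Egln3 (PHD3), the sensor most strongly raised by low oxygen, stood at 4.32 and 1.85 CPM in the Ogn tumor-like, 1.72 and 0.419 in the Krt20 tumor-like and 1.44 and 1.69 in the cycling tumor-like cells. For myeloid cells, Egln3 levels were 20.4 and 25 CPM in the C1q macrophage-like, 16.1 and 21.1 in the cycling C1q macrophage-like, 96.3 and 70.2 in the Cxcl3 macrophage-like, 32.1 and 42.3 in the monocyte-like and 219 and 241 in the neutrophil-like cells. In lymphoid cells, Egln3 measured 6.49 and 3.52 CPM in the CD8 T-like, 7.18 and 5.52 in the cycling CD8 T-like, 20.2 and 5.66 in the regulatory and gamma-delta T-like and 6.33 and 4.19 in the NK-like cells. The 2 sensors ranked the myeloid classes differently: neutrophil-like cells held the most Egln3, 2.28- and 3.44-fold above the Cxcl3 macrophage-like cells, and the least Egln1, 4.11- and 3.28-fold below them. The called ratio of Egln3 was -1.22 (-1.92 to -0.52) in the Ogn tumor-like cells, from 32 and 43 UMIs, and -0.39 once the cells of highest doublet score were left out.

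Ankrd37, a short ankyrin-repeat protein and strong target of hypoxia-inducible factor, with 3 places of the letters in the stretch shown above, was found at 21.6 and 10.3 CPM in the Ogn tumor-like, 19.3 and 14.3 in the Krt20 tumor-like and 15.4 and 7.2 in the cycling tumor-like cells. For myeloid cells, Ankrd37 levels were 62.9 and 47.8 CPM in the C1q macrophage-like, 44.6 and 31.9 in the cycling C1q macrophage-like, 84.3 and 90.2 in the Cxcl3 macrophage-like, 37.8 and 39 in the monocyte-like and 76.8 and 46.7 in the neutrophil-like cells. In lymphoid cells, Ankrd37 measured 38.5 and 15.1 CPM in the CD8 T-like, 34.5 and 16.9 in the cycling CD8 T-like, 11.2 and 19.8 in the regulatory and gamma-delta T-like and 20.4 and 13 in the NK-like cells. It was lower in 6 classes. The ratios were -1.07 (-1.37 to -0.77) in the Ogn tumor-like, -1.10 (-1.61 to -0.60) in the cycling tumor-like and -1.36 (-1.90 to -0.83) in the CD8 T-like cells. Cycling CD8 T-like cells gave -1.03 (-1.57 to -0.50), neutrophil-like cells -0.72 (-1.23 to -0.23) and NK-like cells -0.65 (-1.31 to -0.03). Thinning turned the last 2 values to 0.11 and 0.06 and changed the cycling tumor-like one to -0.27, and leaving out the 5 highest cells changed the cycling CD8 T-like ratio to -0.46. Kdm3a, a histone demethylase that needs oxygen, had no called ratio, with values from -0.28 to 0.25.

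**Figure D3:**
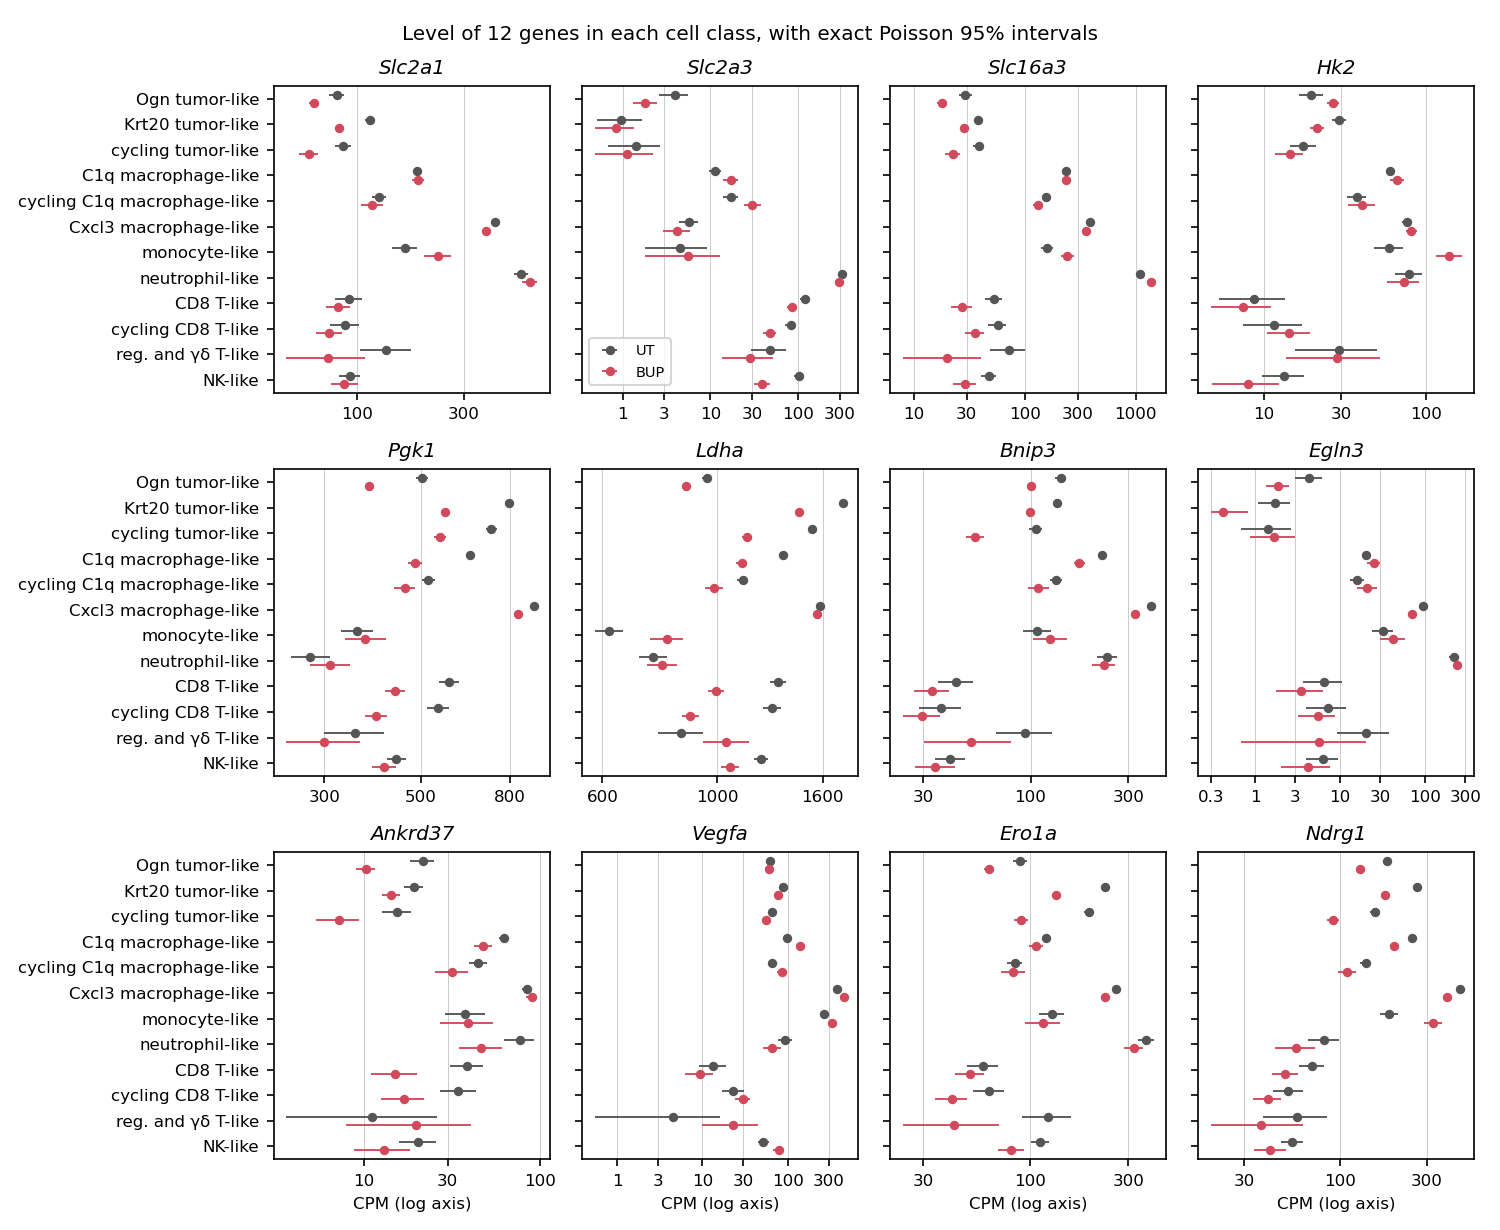
CPM (log axis) of 12 of the genes in each cell class (vertical axis), UT in gray and BUP-treated in red, with exact Poisson 95% intervals. Slc2a3, Slc16a3 and Egln3 are highest in the neutrophil-like cells and Vegfa, Ndrg1 and Pgk1 in the Cxcl3 macrophage-like cells in both libraries, and the red points of most genes lie left of the gray ones in the 3 tumor-like classes.

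Among secreted factors, Vegfa, the main angiogenic growth factor, was at 62 and 60.4 CPM in the Ogn tumor-like, 88.3 and 75.8 in the Krt20 tumor-like and 64.7 and 56 in the cycling tumor-like cells. For myeloid cells, Vegfa levels were 99.1 and 139 CPM in the C1q macrophage-like, 65.9 and 86 in the cycling C1q macrophage-like, 381 and 459 in the Cxcl3 macrophage-like, 266 and 332 in the monocyte-like and 93.3 and 65.5 in the neutrophil-like cells. In lymphoid cells, Vegfa measured 13.4 and 9.29 CPM in the CD8 T-like, 23 and 29.5 in the cycling CD8 T-like, 4.49 and 22.7 in the regulatory and gamma-delta T-like and 51.8 and 78.3 in the NK-like cells. It did not follow the glycolytic enzymes in macrophage-like cells, where its ratios were 0.49 (0.37 to 0.62), 0.38 (0.15 to 0.62) and 0.27 (0.21 to 0.33) in the C1q, cycling C1q and Cxcl3 cells, short of 1.5-fold, while the only called ratio in the 12 classes was 0.60 (0.29 to 0.90) in NK-like cells. Cxcl3 macrophage-like cells held it 3.85- and 3.29-fold above C1q macrophage-like cells. A UMI of Vegfa was found in 70.5% (68.1 to 72.8) and 78.7% (75.8 to 81.3) of the Cxcl3 macrophage-like cells at 7595 and 8080.0 UMIs, against 6.29% (3.88 to 9.55) and 4.11% (2.53 to 6.27) of the CD8 T-like cells at 6352 and 5754. Thinned to 2000 UMIs, with at most 29 cells left out per library and class, these shares were 43.2% and 47.9% against 3.31% and 1.31%.

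Adm, the vasodilator peptide adrenomedullin, was rare: it reached at most 7.46 CPM and passed 50 UMIs in the C1q macrophage-like cells alone, at 4.8 and 2.52 CPM with a ratio of -0.93 (-1.84 to -0.11). Without the 5 highest cells of each library that ratio was -2.48, and without cells over 0.1% neutrophil RNA -0.44. For the rest of the myeloid cells, Adm stood at 3.74 and 2.22 CPM in the cycling C1q macrophage-like, 2.91 and 1.6 in the Cxcl3 macrophage-like, 0 and 5.56 in the monocyte-like and 7.46 and 0 in the neutrophil-like cells, where a count of 0 allows up to 1.92 CPM in UT monocyte-like and 2.69 CPM in BUP-treated neutrophil-like cells. No tumor-like or lymphoid level of Adm passed 0.575 CPM.

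Mif, the macrophage migration inhibitory factor, was at 491 and 526 CPM in the Ogn tumor-like, 989 and 981 in the Krt20 tumor-like and 838 and 781 in the cycling tumor-like cells. For myeloid cells, Mif levels were 779 and 832 CPM in the C1q macrophage-like, 723 and 805 in the cycling C1q macrophage-like, 888 and 1145 in the Cxcl3 macrophage-like, 284 and 482 in the monocyte-like and 386 and 372 in the neutrophil-like cells. In lymphoid cells, Mif measured 817 and 796 CPM in the CD8 T-like, 745 and 746 in the cycling CD8 T-like, 581 and 864 in the regulatory and gamma-delta T-like and 647 and 744 in the NK-like cells. Its ratios in the tumor-like cells lay between -0.10 and 0.10, and the monocyte-like ratio of 0.76 (0.57 to 0.96) was called but was 0.20 with the genes kept for clustering.

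Ero1a, the oxidase that drives disulfide bonds in the endoplasmic reticulum and whose window is shown in part above, stood at 88.8 and 62.6 CPM in the Ogn tumor-like, 231 and 133 in the Krt20 tumor-like and 192 and 90.1 in the cycling tumor-like cells. For myeloid cells, Ero1a levels were 119.5 and 106 CPM in the C1q macrophage-like, 83.9 and 82.7 in the cycling C1q macrophage-like, 261 and 230.1 in the Cxcl3 macrophage-like, 127 and 115 in the monocyte-like and 365 and 319 in the neutrophil-like cells. In lymphoid cells, Ero1a measured 58.4 and 50.6 CPM in the CD8 T-like, 62.7 and 41.2 in the cycling CD8 T-like, 121 and 42.5 in the regulatory and gamma-delta T-like and 111 and 80.4 in the NK-like cells. The Krt20 tumor-like cells held it 2.61- and 2.12-fold above the Ogn tumor-like cells. In the BUP-treated library it was lower in Krt20 tumor-like cells at -0.80 (-0.88 to -0.73) and in cycling tumor-like cells at -1.09 (-1.23 to -0.96), and the Ogn tumor-like ratio of -0.51 (-0.64 to -0.37) was short of 1.5-fold. Of the UT UMIs in cycling tumor-like cells, 38.1% came from 5 cells, and without the 5 highest cells of each library the ratio was -0.78. It was also lower in cycling CD8 T-like cells at -0.61 (-0.97 to -0.24) and in regulatory and gamma-delta T-like cells at -1.51 (-2.44 to -0.67). The share of Krt20 tumor-like cells with a UMI of Ero1a was 82.4% (78.5 to 85.8) in UT and 76.8% (73.4 to 79.9) in BUP-treated cells, and 27.4% and 20.6% after thinning, against thinned shares of 9.6% and 9.83% in CD8 T-like cells.

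P4ha1 and P4ha2 are collagen prolyl hydroxylases. P4ha1 had no called ratio, with values from -0.53 in CD8 T-like to 0.38 in monocyte-like cells. P4ha2 was found at 9.85 and 8.34 CPM in the Ogn tumor-like, 11.4 and 8.9 in the Krt20 tumor-like and 8.06 and 4.66 in the cycling tumor-like cells. For myeloid cells, P4ha2 levels were 7.89 and 6.21 CPM in the C1q macrophage-like, 5.3 and 2.97 in the cycling C1q macrophage-like, 2.74 and 2.1 in the Cxcl3 macrophage-like, 1.28 and 3.34 in the monocyte-like and 0 and 0 in the neutrophil-like cells. In lymphoid cells, P4ha2 measured 0 and 1.92 CPM in the CD8 T-like, 0.479 and 0.324 in the cycling CD8 T-like, 4.49 and 0 in the regulatory and gamma-delta T-like and 0.575 and 0.419 in the NK-like cells. Its 4 highest levels in both libraries were those of the 3 tumor-like and the C1q macrophage-like cells, its level in Cxcl3 macrophage-like cells being 2.87- and 2.96-fold lower than in C1q macrophage-like cells. Its called ratio was -0.79 (-1.46 to -0.15) in the cycling tumor-like cells. In neutrophil-like cells it had 0 UMIs, which allows up to 2.24 CPM for UT and up to 2.69 for the BUP-treated library.

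Car9, the carbonic anhydrase that acidifies the space around hypoxic cells, was at 4.72 and 0.903 CPM in the Ogn tumor-like, 5.23 and 2.83 in the Krt20 tumor-like and 12.5 and 1.69 in the cycling tumor-like cells. For myeloid cells, Car9 levels were 8.44 and 8.22 CPM in the C1q macrophage-like, 6.08 and 4.82 in the cycling C1q macrophage-like, 3.63 and 3.33 in the Cxcl3 macrophage-like, 1.92 and 0 in the monocyte-like and 0 and 0.897 in the neutrophil-like cells. In lymphoid cells, Car9 measured 0 and 1.28 CPM in the CD8 T-like, 0 and 0.324 in the cycling CD8 T-like, 0 and 0 in the regulatory and gamma-delta T-like and 6.62 and 2.09 in the NK-like cells. Of the genes with enough UMIs it had the lowest ratios in each tumor-like class: -2.89 (-3.89 to -2.01) in the cycling, -2.39 (-3.24 to -1.57) in the Ogn and -0.89 (-1.43 to -0.35) in the Krt20 cells. These rested on few cells, since 5 cells held 80.5% of 87 UMIs in UT cycling tumor-like cells and 68.6% of 35 UMIs in UT Ogn tumor-like cells. Without the 5 highest cells of each library the cycling ratio was -2.52, and thinning turned the Krt20 ratio to 0.39. The gene was found in 8.09% (4.49 to 13.2) of UT and 3.9% (1.7 to 7.54) of BUP-treated cycling tumor-like cells, in which the median cell held 38342 and 33302 UMIs.

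Ndrg1, a stress-responsive gene used as a marker of hypoxic tumor areas, stood at 182 and 129.7 CPM in the Ogn tumor-like, 264 and 177 in the Krt20 tumor-like and 156 and 92 in the cycling tumor-like cells. For myeloid cells, Ndrg1 levels were 248 and 199 CPM in the C1q macrophage-like, 139 and 110.1 in the cycling C1q macrophage-like, 454 and 386 in the Cxcl3 macrophage-like, 187 and 325 in the monocyte-like and 82.1 and 57.4 in the neutrophil-like cells. In lymphoid cells, Ndrg1 measured 70.1 and 50.3 CPM in the CD8 T-like, 52.2 and 40.2 in the cycling CD8 T-like, 58.3 and 36.8 in the regulatory and gamma-delta T-like and 54.9 and 41.4 in the NK-like cells. Its ratio was -0.76 (-0.91 to -0.62) in the cycling tumor-like cells and 0.80 (0.56 to 1.04) in the monocyte-like cells, the called values, and -0.58 (-0.65 to -0.51) and -0.49 (-0.58 to -0.40) in the Krt20 and Ogn tumor-like cells, just short of and further from 1.5-fold. Thinning changed the cycling tumor-like ratio to -0.40, and keeping the genes for clustering changed the monocyte-like one to 0.14. Ddit4 (REDD1), which restrains mTORC1 under hypoxia, stress or glucocorticoids, was at 90.2 and 96.6 CPM in the Ogn tumor-like, 31.1 and 30.6 in the Krt20 tumor-like and 33.7 and 29.5 in the cycling tumor-like cells. For myeloid cells, Ddit4 levels were 21.7 and 34.1 CPM in the C1q macrophage-like, 48 and 75.6 in the cycling C1q macrophage-like, 119.6 and 119 in the Cxcl3 macrophage-like, 68 and 83.5 in the monocyte-like and 178 and 152 in the neutrophil-like cells. In lymphoid cells, Ddit4 measured 165 and 206 CPM in the CD8 T-like, 141 and 184 in the cycling CD8 T-like, 254 and 227 in the regulatory and gamma-delta T-like and 224 and 296 in the NK-like cells. Its ratios were 0.10 in the Ogn, -0.02 in the Krt20 and -0.19 in the cycling tumor-like cells and 0.32 in the CD8 T-like cells, none past 1.5-fold. It was higher in C1q macrophage-like cells at 0.65 (0.39 to 0.91) and in their cycling counterpart at 0.66 (0.39 to 0.92). The first of these was 0.05 after thinning and the second -0.17 with the genes kept for clustering.

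Summed over the genes in single cells, the 99th percentile was lower in the BUP-treated library in all 3 tumor-like classes and the median in the Krt20 and cycling ones. Each cell was thinned to 2000 UMIs, and UMIs of the 14 glycolytic enzymes were summed. In Ogn tumor-like cells the median was 10 UMIs in UT and 10 in BUP-treated cells, and the 99th percentile 61 and 40. In Krt20 tumor-like cells the medians were 16 and 14 and the 99th percentiles 57.4 and 40. Cycling tumor-like cells had medians of 14 and 11 and 99th percentiles of 59.4 and 33.9, in 170 and 205 cells, so that each percentile rests on few cells. The 99th percentile thus differed by more UMIs than the median in these 3 classes. In UT it rests on few of 489 Ogn, 442 Krt20 and 170 cycling tumor-like cells, and it carries no interval. At the 90th percentile the values were closer, at 24 and 21 in the Ogn, 31 and 26 in the Krt20 and 26 and 19 in the cycling tumor-like cells. In CD8 T-like cells the medians were 15 and 12, with 99th percentiles of 34 and 32. Cxcl3 macrophage-like cells had the highest medians, 25 in both libraries.

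The other 18 genes, with Mif left out because its high level would carry the sum, were scored as the share of thinned cells with at least 5 UMIs of them. That share was 11.2% (8.59 to 14.4) in UT and 7.16% (5.92 to 8.57) in BUP-treated Ogn tumor-like cells and 16.1% (12.8 to 19.8) and 8.75% (6.73 to 11.1) in Krt20 tumor-like cells. Among C1q macrophage-like cells it was 24.5% (21.9 to 27.2) and 18.7% (15.2 to 22.6), and among Cxcl3 macrophage-like cells 55.6% (53 to 58.2) and 52.4% (49 to 55.7). The direction was the opposite in monocyte-like cells, with 18.7% (14 to 24.2) and 33.1% (25.4 to 41.6). At this cut it was also the opposite in neutrophil-like cells, with 60.6% (54.7 to 66.4) and 74.8% (68.7 to 80.3), where 341 and 198 cells were too shallow to be thinned. The mean of these UMIs in neutrophil-like cells hardly differed, at 7.46 and 7.54, and the median was 6 and 7. Their 90th percentile was lower in the BUP-treated library, at 14.9 and 12.1, as was the 99th, at 32.4 and 21.7. The intervals of these shares cover the counting of cells only, and not the spread between mice, pooled tumors or sorts. Cells of a pooled library are not replicates of the treatment, so whether the intervals overlap is no test between the groups. Shares of other genes at this cut were not taken as a background. The median ratio of the monocyte-like class turned with the genes kept for clustering, and its share was not tested in that setting.

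**Figure D4:**
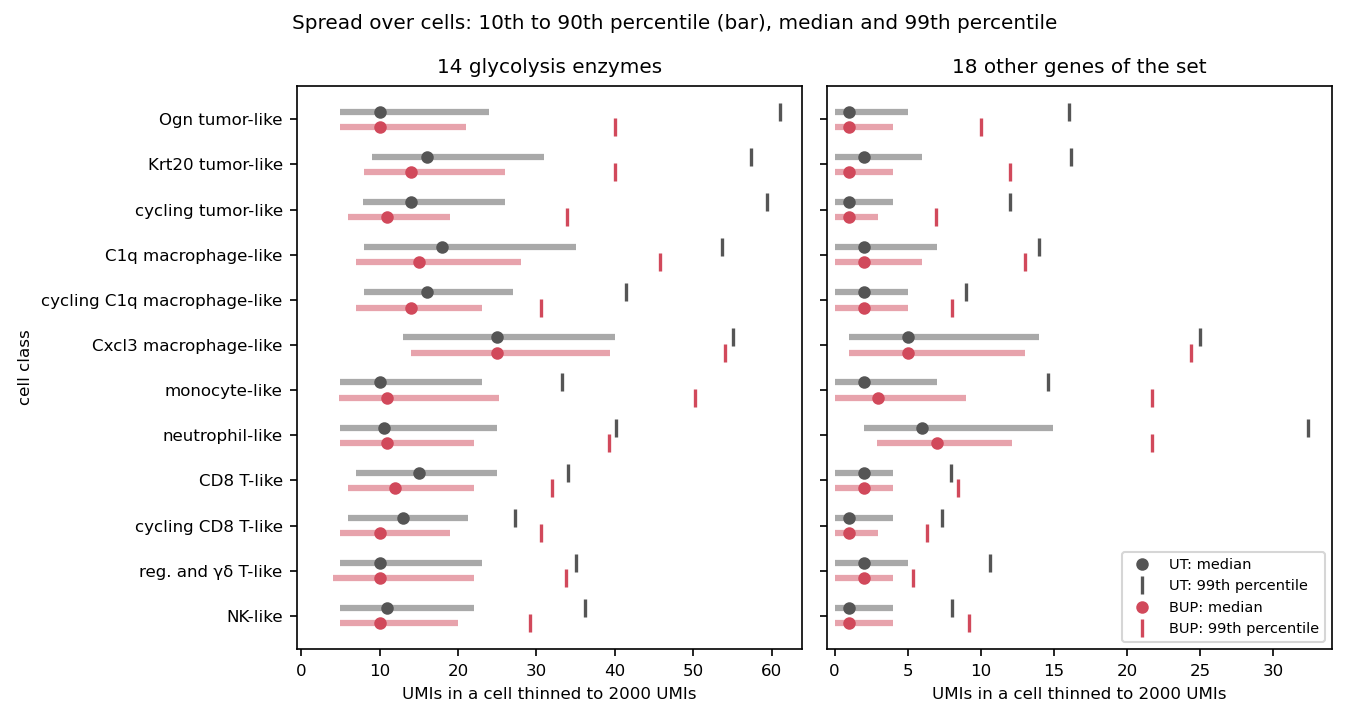
UMIs of the 14 glycolytic enzymes (left) and of 18 other genes of the set (right) in cells thinned to 2000 UMIs (horizontal axes), by cell class, with the 10th to 90th percentile as a bar, the median as a point and the 99th percentile as a tick, UT in gray and BUP-treated in red. The 99th percentile of the enzymes is lower in the BUP-treated library in the 3 tumor-like classes (61 and 40 UMIs in the Ogn tumor-like cells), while the Ogn medians are both 10.

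RNA from other cells was traced with marker genes in the same classes. In the 3 tumor-like classes the summed RNA of Ms4a7, Apoe, C1qa, C1qb and C1qc, which mark macrophages, stood lower in the BUP-treated library, at 391 and 219.9 CPM in the Ogn, 169 and 59.7 in the Krt20 and 536 and 302 in the cycling tumor-like cells. The T cell genes Cd3e, Cd3d and Trac in cycling C1q macrophage-like cells stood at 167 and 556 CPM. Hemoglobin and Alas2 RNA outside the regulatory and gamma-delta T-like cells ranged from 2.6 to 412 CPM, and the tumor genes Ogn, Aspn, Krt20, Esm1 and Nppb in immune classes from 5.63 to 42.5 CPM. Their part in the ratios of the 33 genes was not tested beyond the values without neutrophil-RNA cells given above.

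Differences past 2-fold in both libraries were counted between 4 pairs of classes. Krt20 against Ogn tumor-like cells had 1 of 32 genes higher, Ero1a, while 4.54% of all genes were, and 3 lower (Slc2a3, Egln3 and Ddit4, against 7.25% of all genes). Ddit4 was 2.9- and 3.15-fold lower there. Cxcl3 against C1q macrophage-like cells had 5 of 33 higher (Slc2a1, Egln3, Vegfa, Ero1a and Ddit4, against 2.51% of all genes) and 3 lower (Slc2a3, P4ha2 and Car9, against 6.35%). Egln3 was 4.73- and 2.81-fold and Ddit4 5.5- and 3.48-fold higher in the Cxcl3 macrophage-like cells. Neutrophil-like against Cxcl3 macrophage-like cells had 3 of 33 higher (Slc2a3, Slc16a3 and Egln3, against 9.73% of all genes) and 10 lower, the enzymes Gpi1, Tpi1, Gapdh, Pgk1 and Eno1 with Pdk1, Egln1, Vegfa, Mif and Ndrg1, against 40.2% of all genes. Slc16a3 was 2.82- and 3.84-fold higher and Pgk1 3.25- and 2.7-fold lower in them. CD8 T-like against NK-like cells had 0 of 30 higher (all genes 5.05%) and 1 lower, Vegfa (all genes 3.97%). Apart from the 5 genes higher in the Cxcl3 macrophage-like cells, these counts lie near the shares over all genes or below them. The classes come from clustering these same cells, so these are descriptions.

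A further 60 genes of the same pathways, such as other isoforms, the hypoxia-inducible factors and the pentose phosphate enzymes, were read in the same way. Those with enough UMIs were lower and higher past 1.5-fold in 4 and 1 of 50 cases in the Ogn, 1 and 1 of 48 in the Krt20 and 4 and 1 of 45 in the cycling tumor-like cells. Over all genes these shares were 4.03% and 1.61% in the Ogn, 3.2% and 1.29% in the Krt20 and 3.93% and 1.63% in the cycling tumor-like cells. In Ogn tumor-like cells Selenbp1 was at -1.20 (-1.67 to -0.73), Aldoc, the brain aldolase, at -1.004 (-1.80 to -0.18) and Gbe1, the glycogen branching enzyme, at -0.68 (-0.86 to -0.49). Against this, Angptl4, a secreted lipase inhibitor, was higher in all 3 tumor-like classes, at 0.70 (0.44 to 0.96) in the Ogn, 0.60 (0.42 to 0.79) in the Krt20 and 0.97 (0.60 to 1.35) in the cycling cells. Hmox1, heme oxygenase 1, was lower in Krt20 tumor-like cells at -0.68 (-0.80 to -0.55). In cycling tumor-like cells Hk3 was at -0.83 (-1.63 to -0.05), Pgm1 at -0.67 (-1.02 to -0.33) and Tigar, a bisphosphatase that opposes glycolysis, at -0.66 (-1.21 to -0.13).

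In myeloid cells, of the 60 genes, 0 and 1 of 52 were lower and higher in the C1q, 4 and 4 of 48 in the cycling C1q and 2 and 0 of 50 in the Cxcl3 macrophage-like cells, 3 and 2 of 35 in the monocyte-like and 3 and 1 of 26 in the neutrophil-like cells. The shares of all genes lower and higher were 3.1% and 4.13% in the C1q, 6.37% and 5.72% in the cycling C1q and 3.47% and 2% in the Cxcl3 macrophage-like, 5.83% and 4.56% in the monocyte-like and 13.8% and 2.32% in the neutrophil-like cells, so most of these counts lie near the background or below it. In the monocyte-like cells 16 of 35 further genes had ratios below 0 (all genes 53.4%), with a median of 0.02 against -0.03. Bhlhe40, a transcription factor of activated macrophages, was higher in C1q macrophage-like cells at 0.97 (0.84 to 1.10) and in their cycling counterpart at 1.04 (0.91 to 1.17). Hilpda, a lipid droplet protein raised by hypoxia, was higher in cycling C1q macrophage-like cells at 0.89 (0.73 to 1.06) and in monocyte-like cells at 0.79 (0.55 to 1.02). Hmox1 was lower in the former at -1.10 (-1.23 to -0.97) and higher in the latter at 0.81 (0.54 to 1.09). Ldhb, the lactate dehydrogenase subunit that favors pyruvate, was lower in Cxcl3 macrophage-like cells at -0.96 (-1.47 to -0.48). Pgls, of the pentose phosphate pathway, was lower in neutrophil-like cells at -0.68 (-1.25 to -0.13).

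Lymphoid classes had 4 and 0 of 41 of these genes lower and higher in the CD8 T-like, 2 and 3 of 39 in the cycling CD8 T-like, 0 and 1 of 13 in the regulatory and gamma-delta T-like and 5 and 0 of 42 in the NK-like cells. All genes were lower and higher in 7.46% and 2.1% of cases in the CD8 T-like, 5.02% and 3.48% in the cycling CD8 T-like, 11.5% and 5.05% in the regulatory and gamma-delta T-like and 6.38% and 1.26% in the NK-like cells. Hif1a, the regulated subunit of hypoxia-inducible factor, was lower in CD8 T-like cells, from 367 to 224 CPM with a ratio of -0.71 (-0.86 to -0.57), and in cycling CD8 T-like cells at -0.70 (-0.86 to -0.55). In Ogn tumor-like cells Hif1a stood at 85.9 and 87.7 CPM, with a ratio of 0.03 (-0.10 to 0.16). The lactate and pyruvate transporter Slc16a1 was lower in NK-like cells at -1.20 (-2.26 to -0.24), as was Mxi1, an antagonist of Myc, at -0.95 (-1.63 to -0.32). Kdm4b, a histone demethylase, was higher in cycling CD8 T-like cells at 1.12 (0.23 to 2.10).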

How the data were processed

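Cells of subcutaneous CT26 tumors were captured with 10X Genomics 5' v2 chemistry, 1 pooled library for UT and 1 for BUP-treated tumors. The deposited matrices hold raw UMI counts per gene and barcode, which the authors made with Cell Ranger on GRCm39 (version 8.0.1 per the file headers and the submitters' processing notes, which also name Seurat 5.0.1). The filter that the study states, over 100 UMIs per cell and a mitochondrial share under 20%, left 13939 of the 7556 and 7221 barcodes, the cell number that the study gives.

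Counts were log-normalized and clustered in Seurat 5.3.0 (R 4.3.3) with 2000 variable genes, the 33 genes and 60 further pathway genes left out, 20 principal components, resolution 0.5 and no integration. A cluster counted as immune where Ptprc was found in 30% of its cells or more, and immune cells were clustered again. Names came from marker lists and are rebuilt, so they may differ from the study's. Doublets were scored with Scrublet (scanpy 1.11.5) and kept, and an alternative left out the 6% of cells with the highest scores. The rest was done in Python 3.11.15, with intervals from scipy 1.17.1, tables from pandas 2.3.3 and figures from matplotlib 3.10.9.

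UMIs were summed per class and library and given as CPM, and ratios carry exact conditional 95% intervals for counting error. Total UMIs per class and library ran from 353062 to 23260287. A count of 0 was read as up to 3 counts. With 1 library per group no test between groups was made. The calculation was tested on simulated cycling tumor-like counts of 10412 genes, where 96.89% of 193 genes changed by 2-fold in the simulation were called and 1.37% of the unchanged ones. The simulated counts held Poisson counting error alone. These shares therefore check the calculation and are not error rates of the calls, which also carry the spread between cells and mice. Classes with fewer UMIs were not simulated. Genes were named with all values where they passed 1.5-fold between libraries in a class or 2-fold between compared classes in both libraries, and of the further genes at most 3 per direction and class. Alternatives changed the cell filter, clustering, doublets, scaling, depth of cells, the minimum of UMIs and the fold. The 33 genes and all lists were chosen with earlier results of these data known. The gene Aldoa is listed under 2 identifiers, of which the first was used. Sequences are from the GRCm39 genome with GENCODE annotation.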

Additional observations from a re-analysis of the deposited data

Results flagged for a closer look

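For 4 genes, calls went in opposite directions among the 12 described cell classes; smaller classes were not compared in this way. The difference between the classes was not tested, because each group has 1 library. Slc2a3 had a log2 ratio of -1.12 in Ogn tumor-like, -0.79 in cycling CD8 T-like and -1.39 in NK-like cells, against 0.60 in C1q macrophage-like cells and 0.82 in their cycling counterpart. Slc16a3 had -0.69 in Ogn tumor-like, -0.78 in cycling tumor-like, -0.96 in CD8 T-like, -0.68 in cycling CD8 T-like and -0.72 in NK-like cells, against 0.60 in monocyte-like cells. Hk2 was at 1.24 in monocyte-like and -0.73 in NK-like cells, the latter with an interval that included 0. Ndrg1 was at -0.76 in cycling tumor-like and 0.80 in monocyte-like cells. Neutrophil RNA, doublet scores and the drawing of the monocyte-like class moved with some of these values, as given beside each in the text, and their part in the rest was not tested.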

How the results depend on the processing

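Of 141 medians recomputed for the 12 classes, 137 moved by less than the limit used, the counting interval of the middle genes. The 4 that moved further were in Krt20 tumor-like cells, whose median of -0.25 was -0.30 without the highest doublet scores, -0.30 with 30 principal components, -0.19 with median-ratio scaling and -0.19 with hemoglobin, mitochondrial and ribosomal genes left out of the scaling. That limit is the interval of single genes and was wide in several classes, so staying within it does not show that a median is stable. It ran from -0.64 to 0.17 in the Ogn tumor-like and from -0.76 to 0.16 in the cycling CD8 T-like cells. In the regulatory and gamma-delta T-like cells it ran from -0.72 to 0.23. It ran from -0.15 to 0.56 in the monocyte-like cells, where larger moves stayed within it. Their median of 0.21 was -0.04 with the genes kept for clustering, when that class grew to 1097 cells, and 0.09 without the 5 highest cells of each gene. Over the 12 classes, 9 pairs of gene and class were called higher and 33 lower. At the smaller fold of 0.32 on the log2 scale these were 27 and 109, with a minimum of 200 UMIs 14 were lower, and with cells thinned to 2000 UMIs 21 were. Of 445 recomputed ratios of called pairs, 405 moved by less than their interval, 36 moved further in the same direction or toward 0, and 4 turned: Ankrd37 in neutrophil-like cells to 0.11 and in NK-like cells to 0.064 and Car9 in Krt20 tumor-like cells to 0.39 when thinned, and Ddit4 in cycling C1q macrophage-like cells to -0.17 with the genes kept for clustering. The cause was not tested, except that thinning leaves fewer UMIs. The values without neutrophil-RNA cells and without the 5 highest cells were added after seeing the data. No cycling tumor-like class formed with 30 principal components or with the genes kept for clustering, so those settings gave no value for it. No paired analysis was possible because each group has 1 library. That library is a pool, so leaving out a replicate was not possible either, and the intervals cover counting error only. Genes under 50 UMIs in a class, such as Adm outside C1q macrophage-like cells, could not be ranked at this depth.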

Other observations

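Smaller classes outside the 12 held some of the higher levels of the set. The fibroblast-like cells (15 UT and 64 BUP-treated cells) had Vegfa at 206 and 481 CPM, with a log2 ratio of 1.22 (0.84 to 1.63), and Ero1a at 65.2 and 110.0 CPM, with 0.76 (0.06 to 1.53). P4ha2, a collagen prolyl hydroxylase, reached 54.9 and 91.1 CPM there, above its level in any of the 12 classes in both libraries, while Pfkp stood at -1.02 (-1.73 to -0.27). In the same cells the share with high doublet scores was 0% and 18.8% and macrophage RNA 37.7 and 366 CPM, whose part was not tested. In migratory dendritic-like cells (74 and 66 cells) the lactate exporter Slc16a3 was higher at 1.249 (0.60 to 1.93), Bnip3 at 1.32 (0.55 to 2.15), Vegfa at 1.36 (0.44 to 2.37) and Ero1a at 0.96 (0.15 to 1.82). In these cells neutrophil RNA was 368 and 926 CPM, macrophage RNA 477 and 736, T cell RNA 28.3 and 195 and the share with high doublet scores 4.05% and 13.6%, and their part was not tested.

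Erythroid-like cells, with median depths of 1020.0 and 1116 UMIs, held Bnip3l, the receptor by which maturing red cells clear their mitochondria, at 3099.7 and 3046 CPM, the only gene of the set with 50 UMIs there, and its ratio was -0.03 (-0.22 to 0.17). A cluster led by Ctsk, Acp5 and Mmp9 (84 and 58 cells) also had the dendritic cell genes Mgl2, Cd209a and Ccl17 and the MHC class II genes H2-Eb1, H2-Ea and H2-Aa among its 10 leading genes and is given no name. In it Hk1 was at 1.15 (0.53 to 1.78) and Vegfa at 0.98 (0.35 to 1.63), while Slc16a3 was at -0.91 (-1.41 to -0.44), Pfkp at -0.86 (-1.17 to -0.55) and Ddit4 at -0.77 (-1.36 to -0.19). Neutrophil RNA there was 142 and 1634 CPM and macrophage RNA 517 and 1241, and their part was not tested. These classes are small and each value compares 2 libraries.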
